A study of Ovis aries with 16 samples.

Results

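MX1, MX2, ISG15, CXCL10, IFITM3 and PSMB8 are 6 interferon-induced genes studied here in left ventricular tissue of fetal sheep. They are 6 of the 851 genes with a name on the array, and each had 1 of the 15008 probes. The genes were chosen by name after earlier results of the same arrays were known, and those results were the log2 ratios between losartan-treated and untreated twins, which were below 0 for these genes. The losartan ratios are therefore given as a description. The array was a sheep gene expression microarray with 1 colour (red, Cy5), and each of the 16 arrays held the RNA of 1 fetus. The fetuses were 8 twin pairs from 8 ewes, and in each pair 1 twin was infused through a vein and the other was not.

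The first group was 4 fetuses given angiotensin II, the peptide that raises blood pressure and acts mainly through the AT1 receptor (twin sets 5 to 8). Its reference was the 4 untreated twins of those fetuses. The second group was 4 fetuses given losartan, a drug that blocks the AT1 receptor (twin sets 1 to 4), with their own 4 untreated twins. The ewes were operated on at day 125 to 126 of pregnancy, with term at day 145, and treatment then lasted 5 days in both arms. The labels describe the infusion in one place as daily and in another as continuous. They name the tissue in one place as free wall and in another as free wall with septum.

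Interferons are secreted proteins that infected or alarmed cells release. They bind receptors on neighbouring cells and, through JAK kinases and STAT transcription factors, switch on a common set of genes whose products block viruses or display their fragments to T cells. In many tissues that set is expressed at a low level without infection, and it is under common control.

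The members differ in role. MX1 and MX2 are dynamin-like GTPases that trap viral components. ISG15 is a ubiquitin-like protein that is coupled to other proteins. CXCL10 is a chemokine that attracts T cells through the receptor CXCR3. IFITM3 is a membrane protein that hinders viral entry, and PSMB8 is a catalytic subunit of the immunoproteasome, which cuts proteins into peptides for MHC class I. In the RefSeq sheep assembly ARS-UI_Ramb_v3.0, MX1 and MX2 were next to each other, CXCL10 lay between CXCL9 and CXCL11, and PSMB8 lay between TAP2 and TAP1. The array files name no genome build, so no coordinates are given.

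The probes are shown because each gene rests on 1 probe, so what was measured is the transcript that holds that sequence. Each probe has 60 bases, and the last 30 bases are printed 5′ to 3′ as the scanner files list them, with the motif AATAAA in capitals. AATAAA is the hexamer that directs the cutting and polyadenylation of many transcripts.
MX1: caatttgtaatacagttctttctaccagaa
MX2: tataaacttcatattctAATAAAtcacttc
ISG15: tggatgatgagcacccgctgggggaatacg
CXCL10: ctttccaaAATAAAagtaatgttctctccc
IFITM3: cgctgaatcAATAAAgtgcccttgtctgtg
PSMB8: agattaacccttacctgctcggcaccatgt
The motif stood in 3 of the 6 probes (MX2, CXCL10 and IFITM3), searched on the listed strand over all 60 bases, and in 5.63% of all 15008 probes. No 2 member probes shared a run of more than 9 bases. MX1 and MX2, the 2 related GTPases, shared at most 5 bases, so their probes do not overlap. In the files ISG15 carries the older name ISG17, and IFITM3 was found by its description as interferon-induced protein 1-8U. A probe whose description names MX1 only as part of another organism's strain name was not counted as a member.

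Levels are log2 of the processed signal, with the 75th percentile of each array set to 0. That percentile was 1124 to 1709 signal units, and 57.3% to 64.1% of the probes were well above background on an array. MX1, MX2, ISG15 and IFITM3 were well above background on all 16 arrays, CXCL10 on 14 and PSMB8 on 9. CXCL10 alone had 5 spots per array, and on the 14 arrays where it was above background their coefficient of variation was 1.24% to 9.15%, with a median of 3.41%. On the other 2 arrays it was at most 10.7%. Among all arrays 3 stood apart from the other 13 on the first principal component, which held 32.1% of the variance: those of the angiotensin II fetuses of sets 7 and 8 and of the untreated twin of set 2. The tissue is a mixture of cells, so fewer cells of a type and less RNA per cell cannot be told apart.

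MX1 had levels of 1.42, 3.07, 1.23 and -1.56 in the angiotensin II fetuses of sets 5, 6, 7 and 8, against 0.67, 0.67, 1.36 and -1.72 in their untreated twins. In the losartan fetuses of sets 1, 2, 3 and 4 it had -0.02, 0.46, -0.45 and -0.97, against 1.71, 0.74, 0.86 and 0.57 in their untreated twins. The losartan fetuses all lay below all 4 of their untreated twins, while the angiotensin II fetuses ranged above and below theirs. The mean was 1.04 ± 1.92 with angiotensin II and 0.25 ± 1.35 in the untreated twins (SD, n = 4 each). It was -0.25 ± 0.61 with losartan and 0.97 ± 0.51 in the untreated twins (SD, n = 4 each).

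MX2, the second of the GTPases, had levels of 0.97, 3.25, 0.23 and -2.50 with angiotensin II (sets 5 to 8), against -0.45, 0.80, 1.90 and -2.39 in the untreated twins. With losartan (sets 1 to 4) it had -0.10, -0.31, -0.51 and -1.50, against 0.14, -0.55, 0.99 and -1.05 in the untreated twins. The groups overlapped in both arms. In set 7 the angiotensin II fetus had the lower MX2 level of the pair, with a log2 ratio of -1.67, while the ratio for MX1 there was -0.13.

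ISG15 had levels of 0.46, 3.48, 1.46 and -2.64 with angiotensin II, against -0.75, 0.79, 1.55 and -2.78 in the untreated twins of the same sets. With losartan it had -0.88, 0.14, -0.64 and -2.52, against 0.78, 0.10, -0.10 and -0.48 in the untreated twins. The 2 fetuses of set 8 were the lowest of their groups, and the angiotensin II fetus of set 6 was the highest of all 16. Between that fetus and the lowest one ISG15 differed 76.8-fold.

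CXCL10, the secreted chemokine, had levels of 0.27, 2.62, 0.52 and -3.29 with angiotensin II, against -1.28, -0.14, 0.59 and -3.62 in the untreated twins. With losartan it had -2.37, -0.02, -1.47 and -3.61, against 0.36, -1.14, -0.37 and -1.17 in the untreated twins. The losartan fetus of set 4 and the untreated twin of set 8 were not well above background, so those values are upper bounds. Groups overlapped in both arms.

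IFITM3 had levels of 3.33, 4.21, 3.43 and 3.07 with angiotensin II, against 3.10, 3.69, 3.56 and 2.70 in the untreated twins. With losartan it had 3.00, 3.02, 3.72 and 3.05, against 3.44, 3.17, 3.91 and 3.02 in the untreated twins. Its levels differed 2.84-fold over all 16 arrays, a narrow range beside those of the GTPases, ISG15 and CXCL10. A further probe, of an unnamed transcript in the same sequence cluster as the IFITM3 probe, correlated with it over the 16 arrays at r = 0.60 (a description). It had fitted log2 changes of 0.46 with angiotensin II and -0.36 with losartan.

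PSMB8 had levels of -3.55, -2.44, -3.03 and -3.61 with angiotensin II, against -3.24, -3.39, -2.69 and -3.37 in the untreated twins. With losartan it had -3.75, -3.34, -3.72 and -3.64, against -2.92, -2.85, -3.06 and -3.21 in the untreated twins. PSMB8 was well above background in none of the 4 losartan fetuses and in all 4 of their untreated twins. The losartan values are therefore only bounds, and no least size of the difference is read from them. The fitted log2 change was -0.60 in the main values. It was -0.35 with normexp background correction and -0.30 with the authors' deposited values. In the angiotensin II arm it was above background in 2 of the 4 treated fetuses and 3 of the 4 untreated twins.

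**Figure D1:**
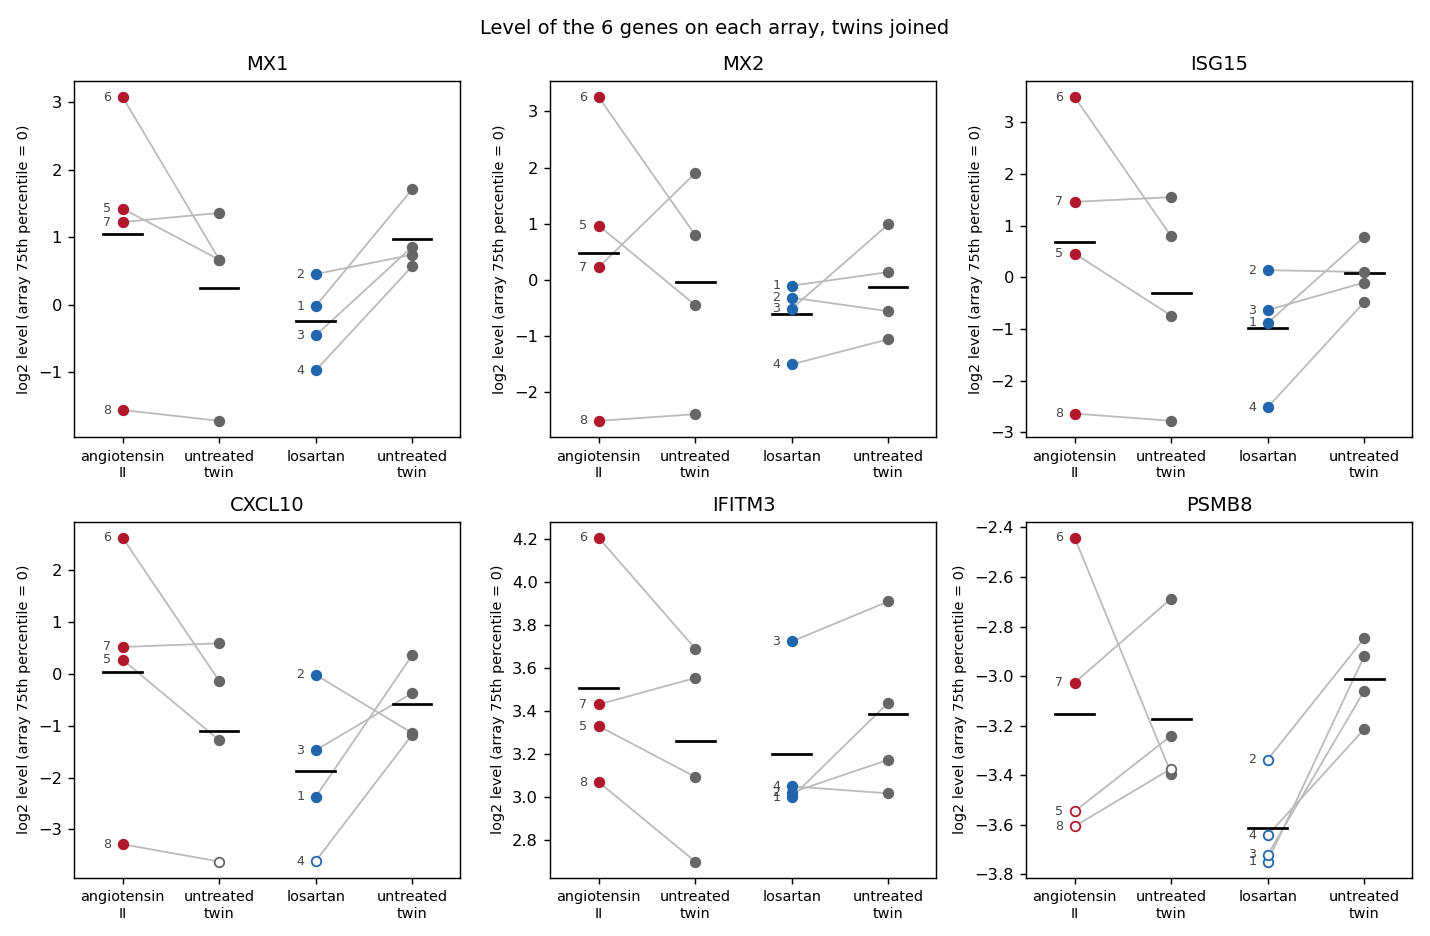
The vertical axis is the log2 level of each gene with the 75th percentile of the array at 0, and each point is 1 fetus, numbered by twin set and joined to its twin. Open points were not well above background, and black bars are group means. The angiotensin II fetus of set 6 is the highest point of all 6 panels, and the twins of set 8 lie together near the bottom for MX1, MX2, ISG15 and CXCL10.

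The spread between fetuses was wide before any treatment was considered. Over the 8 untreated fetuses MX1 differed 10.8-fold, MX2 19.5-fold, ISG15 20.1-fold and CXCL10 18.5-fold between the lowest and the highest. The CXCL10 value is a lower bound, since its lowest fetus was not above background. The SD of these 4 genes over the untreated fetuses was 1.02, 1.34, 1.31 and 1.33 on the log2 scale, against a median of 0.22 over all 8970 probes tested. Only 0.65%, 0.35%, 0.38% and 0.37% of the tested probes had a larger SD. IFITM3 had an SD of 0.40, which 13.6% of the tested probes exceeded, and PSMB8 had 0.26, which 37.3% exceeded. The lowest fetus for each of the 4 wide-ranging genes was the untreated twin of set 8. Without it MX1 ran from 0.57 to 1.71 and MX2 from -1.05 to 1.90. ISG15 then ran from -0.75 to 1.55, CXCL10 from -1.28 to 0.59 and IFITM3 from 3.02 to 3.91. The folds and SDs of the 4 genes, MX1 above all, thus rest in part on that fetus. With all 8 untreated fetuses the 4 genes varied more than the other 2.

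Over all 16 arrays the angiotensin II fetus of set 6 ranked first for each of the 6 genes. Its untreated twin ranked between 4 and 11. At the other end stood set 8, whose untreated twin was the lowest of the 16 for MX1, ISG15 and IFITM3 and whose angiotensin II twin was the lowest for MX2. For CXCL10 the untreated twin of set 8 and the losartan fetus of set 4 had the lowest values, both bounds with no order between them. Set 8 received angiotensin II in 1 twin, and both twins were low.

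The effect of angiotensin II was estimated against the untreated twin with limma, with the twin set as a block. The members' estimates were all above 0, and their median log2 change was 0.66, against -0.02 over all tested probes. MX1 was higher by 0.80 ± 0.37 (SE; limma adjusted p = 0.481), ISG15 by 0.99 ± 0.45 (adjusted p = 0.481) and CXCL10 by 1.14 ± 0.61 (adjusted p = 0.506). None of the 6 passed the limma threshold of 0.05 after Benjamini-Hochberg adjustment over 8970 probes, and the background was 0% of the tested probes. At an unadjusted p under 0.05 the count was also 0 of 6 members, and it was 935 of all tested probes.

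The other members had smaller estimates. MX2 had 0.52 ± 0.55 (SE; limma adjusted p = 0.685), IFITM3 had 0.25 ± 0.12 (adjusted p = 0.497) and PSMB8 had 0.02 ± 0.20 (adjusted p = 0.969). The twin ratios show how unevenly the pairs contributed. In set 6 MX1, MX2, ISG15 and CXCL10 had log2 ratios of 2.40, 2.45, 2.69 and 2.76, and in set 5 the same genes had 0.76, 1.41, 1.20 and 1.55. In sets 7 and 8 they had ratios between -0.13 and 0.33, apart from the -1.67 of MX2 in set 7. Without set 6 the estimates were 0.26 for MX1, -0.12 for MX2, 0.42 for ISG15, 0.60 for CXCL10 and -0.29 for PSMB8.

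The losartan effect was estimated in the same fit, and it is a description because these ratios chose the members. The estimates were below 0 for all 6 genes, and their median was -0.83, against 0.01 over all tested probes. MX1 had -1.22 ± 0.37 (SE; limma adjusted p = 0.200), ISG15 -1.05 ± 0.45 (adjusted p = 0.387) and CXCL10 -1.29 ± 0.61 (adjusted p = 0.440). MX2 had -0.49 ± 0.55 (limma adjusted p = 0.757), IFITM3 -0.19 ± 0.12 (adjusted p = 0.586) and PSMB8 -0.60 ± 0.20 (adjusted p = 0.241). No member passed the threshold, beside 1.22% of the tested probes (109 of 8970), and 3 of the 6 had an unadjusted p under 0.05, beside 1104 of all tested probes. The 3 were MX1, ISG15 and PSMB8, of which PSMB8 has only a bound in the losartan fetuses.

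Between pairs, MX1 and PSMB8 were lower in the losartan twin of all 4 sets. MX1 had log2 ratios of -1.73, -0.29, -1.31 and -1.54 in sets 1, 2, 3 and 4. CXCL10 had -2.73, 1.12, -1.10 and -2.44, so in set 2 the losartan twin was the higher one. The untreated twin of set 2 is 1 of the arrays that stood apart, and without sets 2, 7 and 8 CXCL10 had an estimate of -2.09 (limma adjusted p = 0.0329, beside 1.35% of the tested probes past the threshold). The arrays lay on 2 slides. In sets 1 and 4, both kept there, the losartan twin was on slide 2 and its untreated twin on slide 1. Without set 6, an angiotensin II pair that enters the shared estimate of the spread, PSMB8 had a limma adjusted p of 0.0339, beside 1.07% of the tested probes. Nothing is read from that p, since PSMB8 has only a bound in the losartan fetuses and entered the test through the untreated twins in which it was high.

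**Figure D2:**
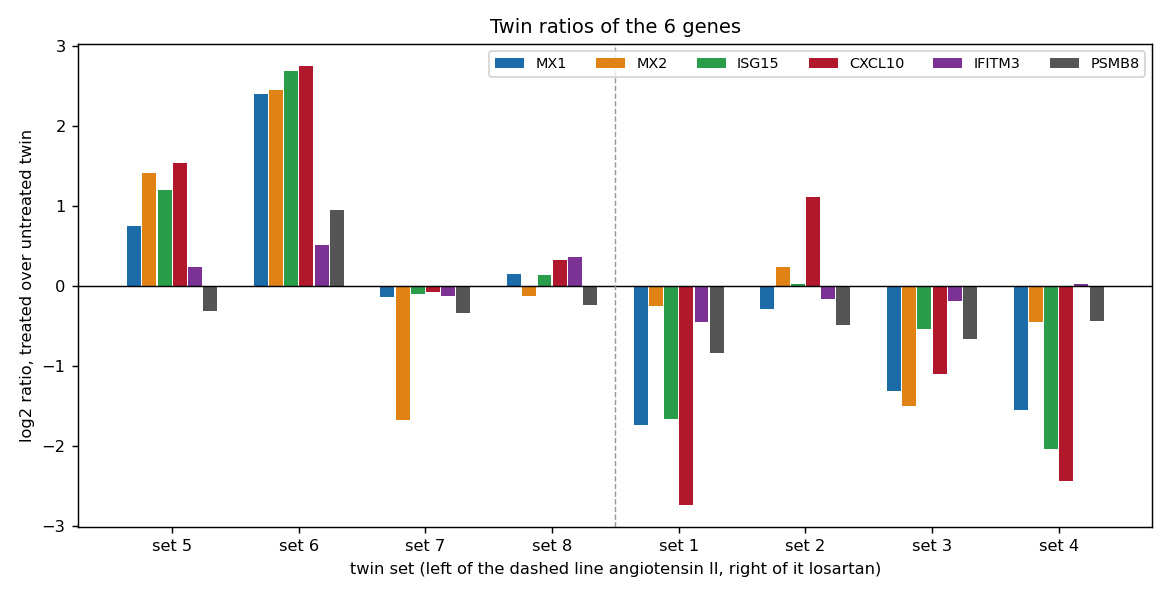
Bars are the log2 ratio of the treated over the untreated twin for each gene and twin set, with angiotensin II sets left of the dashed line and losartan sets right of it. In set 6 all 6 bars are above 0, in sets 1, 3 and 7 all are below 0, and in set 2 the CXCL10 bar reaches 1.12.

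The 2 treatments were then set against each other as the angiotensin II effect minus the losartan effect. The losartan ratios that chose the members enter this contrast, so it too is a description. MX1 had a difference of 2.01 ± 0.53 (SE; limma adjusted p = 0.0950), ISG15 2.04 ± 0.64 (adjusted p = 0.140) and CXCL10 2.43 ± 0.86 (adjusted p = 0.170). MX2 had 1.01 ± 0.77, IFITM3 0.44 ± 0.18 and PSMB8 0.62 ± 0.28. All 6 estimates were above 0 and none passed the limma threshold, beside 1.64% of the tested probes (147 of 8970). At an unadjusted p under 0.05 there were 4 of the 6, beside 1859 of all tested probes.

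Which members passed depended on the source of values and on the twin sets left out. With the authors' deposited values MX1 had a difference of 1.64 (limma adjusted p = 0.0322), beside 19.3% of the tested probes past the threshold, while MX2 had 0.01. Without sets 2, 7 and 8, which leaves 2 angiotensin II sets and 3 losartan sets, 4 members passed the limma threshold, beside 0.836% of the tested probes. By limma these were MX1 (3.11, adjusted p = 0.0299), MX2 (2.66, adjusted p = 0.0469), ISG15 (3.36, adjusted p = 0.0464) and CXCL10 (4.24, adjusted p = 0.0210). This setting drops the arrays that stood apart together with their twins. It also drops set 7, whose twins lay on the slides the other way round from those of set 5. In sets 1 and 4 the untreated twin lay on slide 1, and in set 5 the angiotensin II twin did. Their co-twins lay on slide 2. The untreated fetuses had the higher mean on slide 1 for each gene, for example -0.15 against -2.01 for CXCL10. Slide and treatment cannot be told apart in sets 1, 4 and 5. In the dropped sets, the median ratio of the members was -0.06, -0.13 and 0.15. In the sets kept it was -1.25, -0.88 and -0.99 with losartan and 0.98 and 2.43 with angiotensin II.

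**Figure D3:**
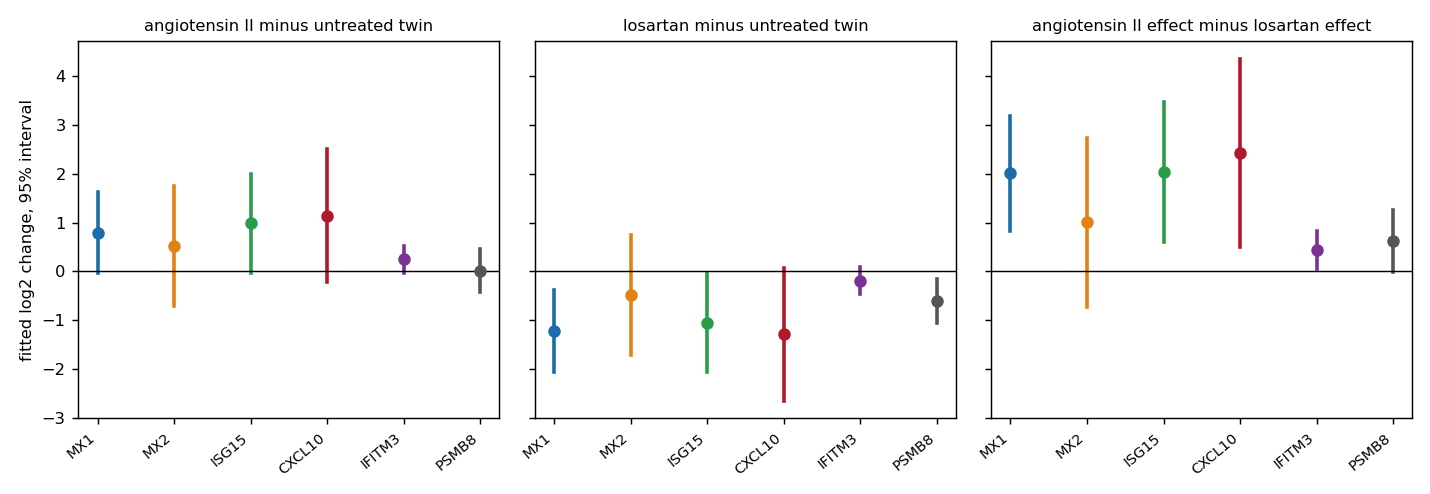
Points are the fitted log2 changes from limma for angiotensin II minus the untreated twin, losartan minus the untreated twin and the difference of these effects, and bars are 95% intervals. MX1 has 0.80, -1.22 and 2.01 in the 3 panels, and the intervals of IFITM3 and PSMB8 are the narrow ones.

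The untreated twins of the 2 arms, who had not been infused, were compared as angiotensin II arm minus losartan arm. None of the 6 members passed, with limma adjusted p-values of 0.999, and the background was 0% of the tested probes. At an unadjusted p under 0.05 the count was 0 of 6 members and 299 of all tested probes. MX1 had an estimate of -0.72 ± 0.58 (SE) and CXCL10 -0.53 ± 0.79. The 95% interval for MX1 ran from -2.03 to 0.58, so with 4 fetuses each, differences within that interval between the untreated groups are not excluded.

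Covariation was examined first among the 8 untreated fetuses, over the 15 pairs of members. Pearson's r was above 0 for all 15 pairs, with a median of 0.77 and a range of 0.33 to 0.97. ISG15 and CXCL10 had r = 0.97 (exact permutation p = 0.000372, adjusted over the 15 pairs 0.00558) and Spearman's rho of 0.95 (exact permutation p = 0.00114, adjusted 0.0171). MX1 and CXCL10 had r = 0.95 (exact permutation p = 0.00193, adjusted 0.0104) and rho of 0.88 (exact permutation p = 0.00724, adjusted 0.0362). Of the 15 pairs, 8 had an adjusted exact p for r under 0.05. These tests are two-sided. The losartan ratios chose the members, and 4 of these 8 fetuses are the reference in those ratios. The p-values among the untreated fetuses, here and below, are therefore a description.

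The 6 pairs of the 4 wide-ranging genes had r of 0.77 to 0.97. IFITM3 lay within that range with MX2 and with CXCL10, so these fetuses do not set the 4 genes apart from it. With CXCL10 it had r = 0.81 (exact permutation p = 0.0120, adjusted 0.0256) and rho of 0.76 (exact permutation p = 0.0368, adjusted 0.0689). IFITM3 was closest to MX2, with r = 0.89 (exact permutation p = 0.00345, adjusted 0.0119) and rho of 0.90 (exact permutation p = 0.00456, adjusted 0.0342). PSMB8 had r of 0.33 to 0.64 with the others, and none of its pairs passed. The lowest of these was with IFITM3, at r = 0.33 (exact permutation p = 0.427, adjusted 0.427) and rho of 0.24 (exact permutation p = 0.582, adjusted 0.582).

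The untreated twin of set 8 was the lowest of the 8 for each gene but PSMB8. Leaving out the 2 fetuses farthest from the median of the first gene of a pair left r of 0.56 to 0.85 for the 6 pairs of MX1, MX2, ISG15 and CXCL10, and 1 of the 15 pairs had an adjusted p under 0.05. That pair was MX2 and IFITM3, with r = 0.98 over the 6 fetuses left (exact permutation p = 0.00278, adjusted 0.0417). ISG15 and CXCL10 had r = 0.85 then (exact permutation p = 0.0431, adjusted 0.129). MX1 and MX2 had r = 0.83 (exact permutation p = 0.0208, adjusted 0.129), while MX2 and ISG15 had 0.56 and MX2 and PSMB8 -0.15.

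The arrays lay on 2 slides, and the untreated fetuses on the first slide had the higher mean for each of the 6 genes, for example 1.03 against -0.10 for MX1 and 0.51 against -1.14 for ISG15. With the slide means taken out, the 6 pairs of MX1, MX2, ISG15 and CXCL10 had r of 0.64 to 0.96. Of the 15 pairs, 6 then had an adjusted permutation p under 0.05. ISG15 and CXCL10 had r = 0.96 then (permutation p = 7.44e-05, adjusted 0.00112). The means were taken out within each slide but the permutation ran across both, so these p-values are not exact. Each slide held 5 or 3 untreated fetuses, too few for a correlation within it.

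Covariation of the 8 twin log2 ratios is a description, since the losartan ratios chose the members. Pearson's r was above 0 for all 15 pairs, with a median of 0.77 and a range of 0.67 to 0.97. MX1 and ISG15 had r = 0.97 and rho of 0.95, and ISG15 and CXCL10 had r = 0.96 and rho of 0.95. PSMB8, which was loosely tied to the others among the untreated fetuses, had r of 0.90 with MX1 and 0.82 with IFITM3 in the ratios. MX2 had the lowest values, 0.67 with IFITM3 and 0.68 with CXCL10.

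With the mean of each arm taken out, the ratios kept r above 0 in all 15 pairs, from 0.45 to 0.94. The pairs of an arm thus differed from each other in the same direction for these genes. The 2 sets farthest from the median of the first gene of a pair were then left out, so the sets differ between pairs. MX2 and ISG15 had r = -0.09 and rho of 0.43, while ISG15 and CXCL10 had r = 0.95. Pearson's r of MX2 with ISG15 between twins therefore rests on the sets farthest for MX2.

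**Figure D4:**
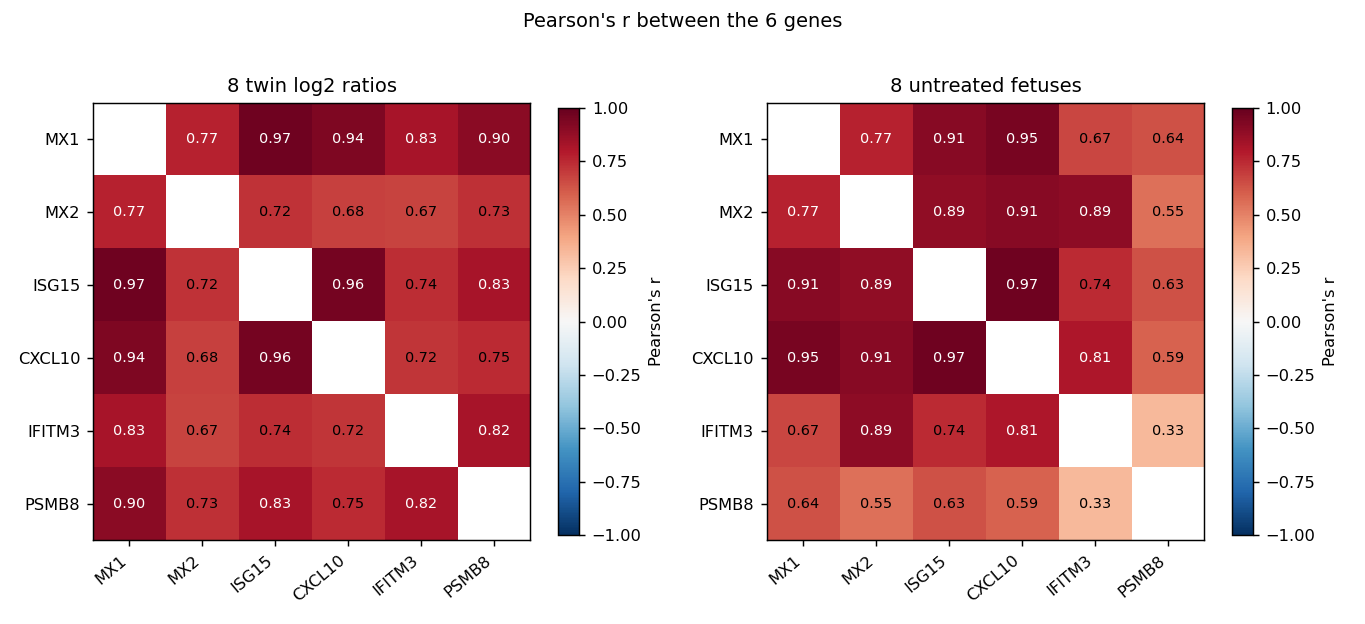
Each cell is Pearson's r between 2 of the 6 genes, over the 8 twin log2 ratios on the left and over the 8 untreated fetuses on the right, on a scale from -1 to 1. ISG15 and CXCL10 reach 0.96 and 0.97, and PSMB8 with IFITM3 has 0.82 on the left and 0.33 on the right.

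Twins were then set against each other, treated against untreated, over the 8 sets. IFITM3 had r = 0.70 (exact permutation p = 0.0480, adjusted over 6 genes 0.203) and rho of 0.57 (exact permutation p = 0.151, adjusted 0.302). ISG15 had r = 0.67 (exact permutation p = 0.0695, adjusted 0.203) and rho of 0.67 (exact permutation p = 0.0831, adjusted 0.302). MX2 had r = 0.61, CXCL10 0.46, MX1 0.45 and PSMB8 -0.10, with adjusted exact permutation p-values of 0.203 to 0.819. No member passed after adjustment.

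Over all tested probes the median r between twins was 0.13, and 5.18% of the probes had a larger r than IFITM3, 6.82% than ISG15, 9.86% than MX2, 19.8% than CXCL10, 21.0% than MX1 and 73.4% than PSMB8. Leaving out the 2 sets farthest from the median gave r = 0.70 for IFITM3, 0.52 for MX2, 0.48 for ISG15, 0.10 for MX1, 0.05 for CXCL10 and -0.62 for PSMB8, with adjusted exact permutation p-values of 0.458 to 0.929 over the 6 genes. For PSMB8 rho was -0.94 then (exact permutation p = 0.0167, adjusted 0.1). The sets left out were those farthest in the level of the untreated twin, gene by gene. For MX1 and CXCL10 the resemblance of twins rests on the sets left out.

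**Figure D5:**
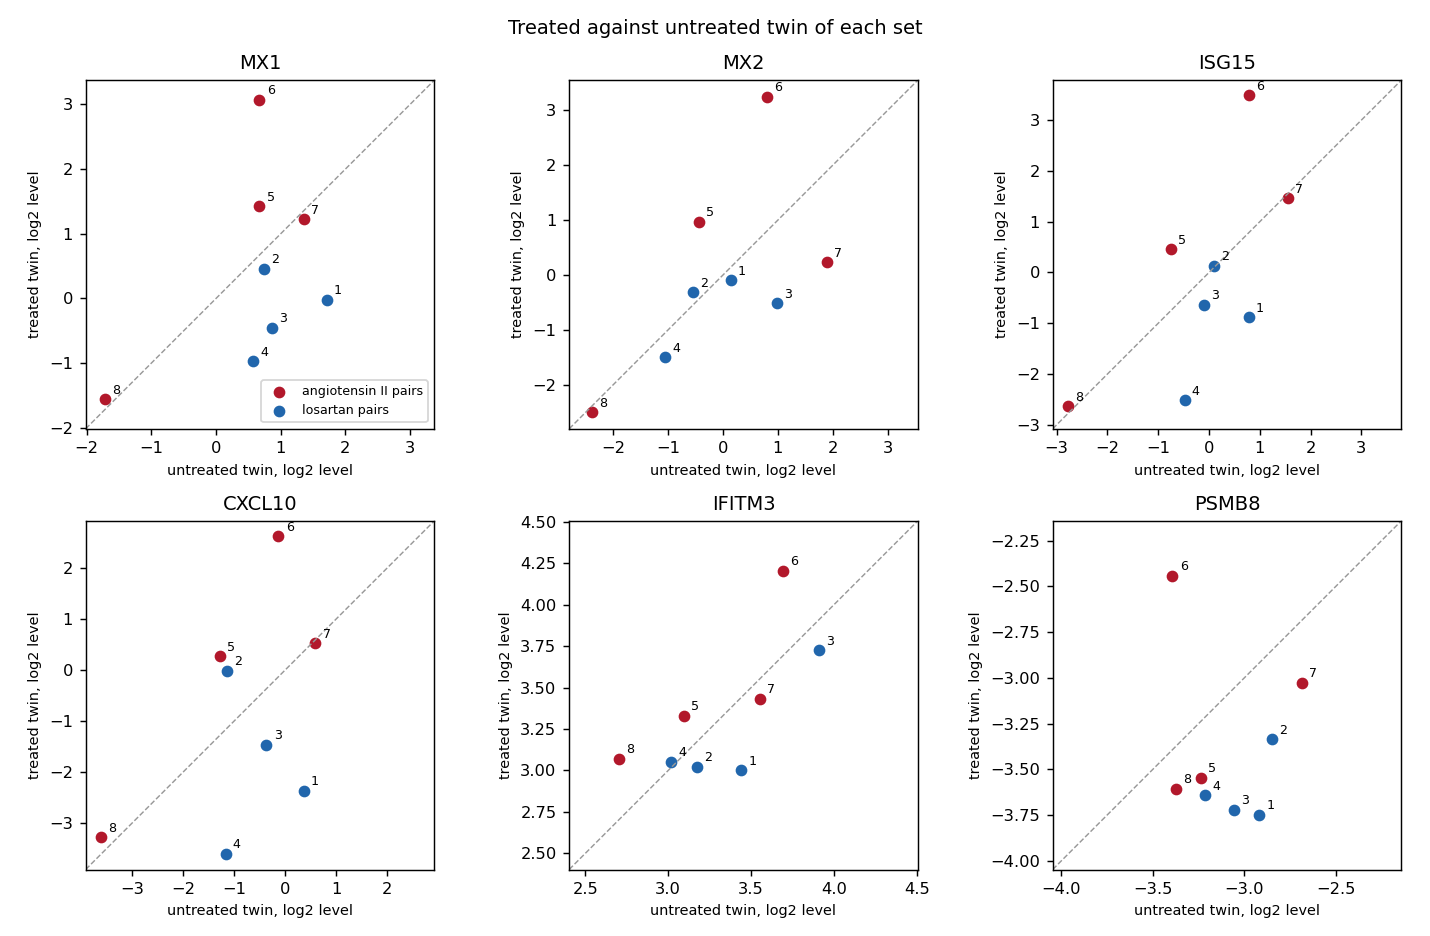
Each point is 1 twin set, with the log2 level in the untreated twin on the horizontal axis and in the treated twin on the vertical axis. The dashed line marks equal levels. Set 8 lies near the line at the low end for MX1, MX2 and ISG15, set 6 lies above it in each panel, and the losartan sets of MX1 and PSMB8 all lie below it.

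The rest of the interferon pathway was looked up in a list of 123 genes in 5 groups. The array had a named probe for 19 of them, and 9 were bright enough to be tested. None of the 9 passed the limma threshold in any of the comparisons. Each gene was taken at its tested probe with the highest mean level. With angiotensin II 7 estimates were above 0 and 2 below, and with losartan 2 were above 0 and 7 below.

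Among ligands, IFNG, which encodes interferon gamma, was above background on at most 1 array by either of its probes, and none of the type I interferon genes on the list was matched to a probe. The receptor chains IFNAR1 and IFNAR2, which bind type I interferons, had fitted log2 changes of 0.11 and 0.08 with angiotensin II and -0.03 and -0.003 with losartan. IRF3, which switches on interferon genes, had 0.01 with angiotensin II and -0.16 with losartan. The other tested probe of IFNAR1, IFNAR2 and IRF3 had 0.14, -0.09 and -0.23 with angiotensin II and -0.11, 0.08 and -0.19 with losartan.

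Sensors and antigen processing genes were mostly small in change as well. TLR3, the receptor for double-stranded RNA, had 0.09 with angiotensin II and 0.02 with losartan. TLR4, TLR7, TLR8, TLR9 and MYD88 were above background on none of the arrays. CTSS, a lysosomal protease of antigen processing, had 0.18 with angiotensin II and -0.14 with losartan. B2M, the light chain of MHC class I, had -0.04 with angiotensin II and -0.12 with losartan. The MHC class I gene listed as OVAR had 0.20 with angiotensin II and -0.33 with losartan, and its other tested probe had -0.08 and -0.12. The proteasome activator PSME2 had 0.20 and 0.01 in these groups. IRF1, IRF2 and DYA were not tested, being above background on at most 5 arrays.

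Although these genes did not pass between treatments, some followed the members from fetus to fetus. With the group means taken out, Pearson's r with MX1 over the 16 arrays was 0.84 for TLR3 and 0.80 for CTSS. It was 0.13 for IFNAR1 and 0.11 for IRF3. These are descriptions over 16 arrays that hold 8 pairs of twins.

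The named genes most like each member were taken from correlations of the same kind over all tested probes. Here each gene stood at its probe with the highest r, not at its probe with the highest mean level. MX1 had ISG15 (0.95), CXCL10 (0.95) and MX2 (0.93) first, then CDK1 (0.88), the mitotic kinase, and a transcript listed as PMCH (0.87). ISG15 had CXCL10 (0.97), MX1 (0.95) and MX2 (0.92) first, and CXCL10 had ISG15 (0.97), MX1 (0.95) and MX2 (0.91). For both, PMCH (0.92 and 0.90) and ATP6V1E1 (0.89 for each), a subunit of the vacuolar proton pump, came next. PMCH and ATP6V1E1 are names that the files give to expressed sequence tags. MX2 had the other three first and then CTSS (0.90) and DNMT1 (0.89), the maintenance DNA methyltransferase.

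IFITM3 and PSMB8 had other neighbours. IFITM3 had MX2 (0.81) first, then FCER1G (0.80), the gamma chain of Fc receptors on myeloid cells, DNMT1 (0.76), CTSS (0.73) and ISG15 (0.71). PSMB8 had B2M (0.87) and OVAR (0.81) first, both of MHC class I, then ISG15 (0.77), PSME2 (0.74) and RTP4 (0.73), a receptor transporter. At their tested probe with the highest mean level, OVAR and PSME2 had r of 0.72 and 0.65 with PSMB8. Their places in that list thus rest on the choice of probe. With the best probe of each gene the list of PSMB8 held 3 genes of antigen presentation. That of IFITM3 held none of the MHC class I genes.

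Few of the probes that moved with MX1, MX2, ISG15 and CXCL10 have a gene name, and on the array as a whole 13637 of the 15008 probes have none. At r of 0.9 or more MX1 had 16 of 8969 other tested probes, ISG15 17, MX2 14 and CXCL10 13, against 2 for IFITM3 and 0 for PSMB8. Besides the members, 6 probes had r of at least 0.9 with MX1, ISG15 and CXCL10 together, and 0 of them had a gene name. The closest, A_70_P063266, had r = 0.98 with MX1, and its fitted log2 changes were 0.09 with angiotensin II and -0.29 with losartan.

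Cell type markers were compared beside these values. Of the neutrophil list CATHL1B, CATHL3 and BAC5, which encode antimicrobial cathelicidins, all 3 were tested and 2 passed with losartan: CATHL3 rose by 2.52 ± 0.44 and CATHL1B by 2.46 ± 0.49 (SE; limma adjusted p = 0.0256 and 0.0478). Their summed log2 level was 1.55 to 3.98 in the losartan fetuses and -0.39 to 1.14 in the untreated twins. With angiotensin II it was -0.43 to 2.50, against -0.67 to 1.62 in the untreated twins. Over the 16 arrays, group means taken out, that sum had r of -0.34 to 0.04 with the members. CXCL10 had the -0.34.

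Of the leukocyte list 3 genes were tested (CD14, CD3E and CD9) and 0 passed. CD4 and ITGAM were above background on none of the arrays. The summed level of the 3 was 0.67 to 1.31 with angiotensin II and 0.54 to 0.91 in the untreated twins, and 0.14 to 0.77 with losartan and 0.29 to 1.21 in the untreated twins. The r of that sum with the members was -0.46 to 0.17, but the genes differed. CD14, of monocytes and macrophages, had 0.10 to 0.62, with the 0.62 for IFITM3. CD3E, of T cells, had -0.33 to 0.39, and CD9 had -0.47 to 0.14. The sum adds linear levels and its r was near that of CD9, for example -0.18 and -0.20 with MX1. It is therefore not read as a value for leukocytes as a whole. In the smooth muscle list CNN1, which encodes calponin, had 1.10 ± 0.24 with angiotensin II (SE; limma adjusted p = 0.404). It passed with losartan (-1.42 ± 0.24, SE; limma adjusted p = 0.0240) and in the difference of the effects (2.52, limma adjusted p = 0.00805), and its r with MX1 was -0.43. MYLK, the other tested gene of that list, had -0.19 ± 0.46 with angiotensin II and -0.35 ± 0.46 with losartan (SE; limma adjusted p = 0.874 and 0.799), and r of -0.11 with MX1.

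The erythroid marker HBB, the beta chain of haemoglobin, had -0.95 ± 0.52 with angiotensin II and 1.15 ± 0.52 with losartan (SE; limma adjusted p = 0.510 and 0.412), and r of 0.27 to 0.51 with the members. Its level was -1.42 to 3.25 with angiotensin II and 0.26 to 3.74 in the untreated twins, and 1.61 to 4.66 with losartan and -0.62 to 3.24 in the untreated twins. None of the 2 endothelial and 3 fibroblast genes tested passed, and the summed levels of these lists had r of -0.50 to -0.26 and 0.00136 to 0.18 with the members. The cardiomyocyte marker TPM1 was above background on all 16 arrays and had r of -0.57 to -0.36 with the members. The part of these cell types in the members' values was not tested.

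The first principal component had r of -0.50 to -0.07 with the members over the 16 arrays, and the 75th percentile of the array had 0.13 to 0.34.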

How the data were processed

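RNA of the left ventricle of 16 fetal sheep was hybridised to 16 arrays, 4 per group, and groups and twin sets were taken from the labels. The scanner files hold spot intensities that the authors made with Agilent Feature Extraction 10.7.3.1, per the file headers: a mean and a background signal, a processed signal and flags for spots well above background. The authors' deposited value table was taken to be on a natural log scale. Against the natural log of the mean signal of each array its slope was 1.02 to 1.06, and the lowest correlation was 0.998. How the table was normalized is not known here. It was converted to log2 and used as an alternative.

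The members and gene lists were chosen with earlier results of these data known. Outlier spots and control spots were left out, spots of a probe were averaged, and log2 processed signals were set relative to the 75th percentile of each array. Of 15008 probes, 8970 were tested: those that all arrays of 1 or more groups showed well above background. Comparisons were fitted with limma 3.58.1 in R 4.3.3, with the twin set as a block, all 16 arrays sharing 1 estimate of the spread, and Benjamini-Hochberg adjustment over the tested probes. The untreated groups were compared over 8 arrays with no block. Twins share a ewe per the labels, which is the basis of the pairing, and the median correlation between twins over all tested probes was 0.13. Each fetus of a group came from a different ewe. The number of arrays limits the precision. Correlations were tested by exact permutation over all pairings, two-sided. The steps were tested on simulated data first. Alternatives were the normalization, normexp background correction with an offset of 50, the deposited values, the filter on dim probes, the block, the slide and leaving out twin sets.

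The genes named are the members, the measured genes of the pathway and marker lists and the 5 named genes with the highest correlation to each member over the 16 arrays with group means taken out. Among these 5 each gene stood at its probe with the highest correlation. Some genes of the pathway lists are not reported here by name.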

Additional observations from a re-analysis of the deposited data

Results flagged for a closer look

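A sample far from the others of its group was looked for in 36 groups of 4 values (Dixon's criterion, critical value 0.829), and 2 were found, where chance gives about 1 in 20. The IFITM3 level of the losartan fetus of set 3 was 3.72, above the 3.00 to 3.05 of the other 3 losartan fetuses, and its untreated twin, at 3.91, was the highest of the untreated fetuses. The PSMB8 log2 ratio of the angiotensin II set 6 was 0.95, while the other 3 sets had -0.34 to -0.23, and 3 of the 8 PSMB8 levels behind these 4 ratios were not well above background.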

How the results depend on the processing

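The counts of members past the limma threshold were the same under the alternatives run for angiotensin II and for the untreated groups (0 in each). For losartan leaving out 1 twin set gave 0 to 1 members, and leaving out sets 2, 7 and 8 gave 1. For the difference of the effects the deposited values gave 1 member and leaving out sets 2, 7 and 8 gave 4. With no replicate block, and with the slide beside the twin block, the counts stayed at 0 (MX1 with losartan -1.22 and -0.93). The slide was balanced in the angiotensin II arm, where sets 5 and 7 were placed in opposite ways, but not without set 7. It was not balanced in the losartan arm. In sets 1 and 4 the losartan twin lay on slide 2 and its untreated twin on slide 1. With the slide in the fit MX2, ISG15 and CXCL10 had losartan estimates of -0.02, -0.57 and -0.58. Without it they had -0.49, -1.05 and -1.29. IFITM3 and PSMB8 had -0.12 and -0.59 with the slide, against -0.19 and -0.60. Directions turned for MX2 and IFITM3 with losartan in the deposited values (0.37 and 0.0729), for IFITM3 within slide 1 (losartan 0.27, difference -0.12) and for PSMB8 with angiotensin II under quantile normalization (-0.00318) and within slide 2 (-0.00926). Leaving out 1 set gave -0.12 to 1.25 for MX2 and -0.29 to 0.14 for PSMB8 with angiotensin II, both below 0 without set 6. Among the untreated fetuses the pairs past the threshold were 13 with quantile normalization, 5 with normexp, 3 with the deposited values and 1 without the 2 farthest, where MX2 and PSMB8 had r = -0.15. IFITM3 and PSMB8 had r = -0.0347 with normexp and -0.0328 with the deposited values. The median r of the twin ratios was 0.65 with the deposited values and 0.60 without the 2 farthest, where MX2 and ISG15 had -0.0909. Twin resemblance of PSMB8 was 0.11 with quantile normalization and 0.0598 with the deposited values. The cause of these changes was not tested. PSMB8 and CXCL10 had no value under the filter that needs all 16 arrays. The mean over probes of a gene was not run, since each member has 1 probe. Dim signals limit PSMB8 and the low end of CXCL10.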
